A study of Homo sapiens with 46 samples.

Results

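The tricarboxylic acid (TCA) cycle, the entry of pyruvate into it and the shuttles that exchange its products with the cytosol were followed through the mRNAs of 31 nuclear genes. The genes were chosen by name, with earlier results of these data known, from the 58735 genes listed in the deposited table of raw gene counts. They comprise 13 TCA cycle genes, 7 genes of pyruvate entry, 2 malic enzymes, 6 genes of the malate-aspartate shuttle and 3 genes of citrate export and glutamate oxidation. All 31 had counts, and all 31 were among the 20272 genes that passed the filter on low counts and were tested, although ME3 did so with very few counts.

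The TCA cycle oxidizes acetyl groups in the mitochondrial matrix and hands the electrons, as NADH and reduced flavin, to the respiratory chain. Pyruvate enters the matrix through the mitochondrial pyruvate carrier and is turned into acetyl-CoA by the pyruvate dehydrogenase complex or into oxaloacetate by pyruvate carboxylase. The inner membrane does not pass NADH, so cytosolic reducing equivalents reach the chain through shuttles such as the malate-aspartate shuttle. When the chain is impaired, cells in culture depend on pyruvate and on aspartate made through these enzymes, and the medium used here contained pyruvate, as well as uridine according to the methods of the study.

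The cells were HEK293T, which the methods give as HEK293-Flp-In T-Rex, an established wild-type line of human embryonic kidney origin. Each treated culture received EndoPorter, a delivery peptide, and 1 chimera at 2 µM for 48 hours. A chimera is pCox4, a yeast mitochondrial presequence, joined to a morpholino that pairs with 1 mRNA of mitochondrial DNA and blocks its translation. There were 11 such treatments, named after the targeted mRNA: ATP6 and ATP8 (ATP synthase), COX1, COX2 and COX3 (complex IV), CYTB (complex III), and ND1, ND2, ND3, ND4L and ND5 (complex I). The control was pCox4 in the buffer of the coupling reaction, with no morpholino, so it does not show what an unrelated morpholino does. Each group had 4 libraries, except COX2 and ND2 with 3, which makes 46 libraries in 12 groups, given as biological replicates in the methods. Replicates 1 and 2 (batch 1) and replicates 3 and 4 (batch 2) were done on different days with different reagents. COX2 lacks replicate 1 and ND2 lacks replicate 2. All 11 treatments were compared with the same 4 control libraries, so their values are not independent of each other. The RNA was from whole cultures, where fewer cells and less RNA per cell cannot be told apart.

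Between 18876395 and 28121898 reads were counted per library, except in COX3 replicate 4 with 100698084, and the 31 genes took 0.391% to 0.411% of them. The line's markers KRT8 (329 to 530 CPM, the count relative to the TMM-scaled library size), KRT18, VIM, PAX2 and LHX1 were present in all libraries. The defining markers of leukocytes, hepatocytes, cardiomyocytes and endothelium (PTPRC, ALB, MYH7, CDH5) stayed at or below 0.533 CPM, and COL3A1 of fibroblasts at or below 1.42 CPM. The targeted mRNA fell in 3 treatments by edgeR's quasi-likelihood test with Benjamini-Hochberg adjustment, most in COX1 (log2 fold change −1.33, adjusted p = 2.25e-21), and also in COX3 and CYTB (−0.49 and −0.33). It rose in ND1, ND2 and ND3 (0.79, 1.02 and 0.80), and no change passed the test in the other 5, with values from −0.29 to 0.13.

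Since expression is compared between genes below, levels are given per length, as CPM per kilobase of exon. The length is the union of all annotated exons of a gene, so levels compared between genes depend on that annotation. In the control, ACLY, which splits citrate into acetyl-CoA and oxaloacetate in the cytosol, had the highest level (113 ± 3.51, SD, n = 4). SLC25A1, the carrier that exports the citrate, followed with 95.4 ± 3.59 (SD, n = 4). Within the cycle, malate dehydrogenase MDH2 (85.6 ± 2.02, SD, n = 4) and citrate synthase CS (55.1 ± 4.06, SD, n = 4) led. The cycle enzymes with the lowest levels were SUCLA2, the ATP-forming subunit of succinyl-CoA synthetase (5.08 ± 0.424, SD, n = 4), and IDH3A, the catalytic subunit of NAD-dependent isocitrate dehydrogenase (10.4 ± 0.777, SD, n = 4). Pyruvate carboxylase PC stood at 2.77 ± 0.297 (SD, n = 4). The level of CS was 20.1 ± 3.09 times that of PC in the same control libraries (SD, n = 4).

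Subunits that work in one complex, or in alternative forms of it, did not have equal mRNA levels per length. IDH3B, a regulatory subunit of isocitrate dehydrogenase, had 4.46 ± 0.297 times the level per length of IDH3A in the control (SD, n = 4), and between 4.22 and 5.64 times over all 46 libraries. PDHB had 0.526 ± 0.0107 times the level of PDHA1 (SD, n = 4). Of the alternative subunits of succinyl-CoA synthetase, SUCLA2 had 0.384 ± 0.0493 times the level of the GTP-forming SUCLG2 (SD, n = 4). OGDH, the first enzyme of the 2-oxoglutarate dehydrogenase complex, had 0.529 ± 0.049 times that of DLST, its second (SD, n = 4). Of the aspartate-glutamate carriers of the shuttle, SLC25A13 (citrin) had 3.28 ± 0.344 times the level of SLC25A12 (aralar; SD, n = 4). Before division by length, IDH3B had 120 CPM and IDH3A 71.4 CPM in the control, and SUCLA2 45.4 CPM and SUCLG2 41.1 CPM. The order of SUCLA2 and SUCLG2 thus turned on the length, while that of the other pairs named did not. Of the malic enzymes, ME2 had 154 ± 9.84 CPM (SD, n = 4), whereas ME3 had a median of 3 counts a library, no count in 5 of the 46 libraries, and 0.225 ± 0.245 CPM in the control (SD, n = 4).

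**Figure D1:**
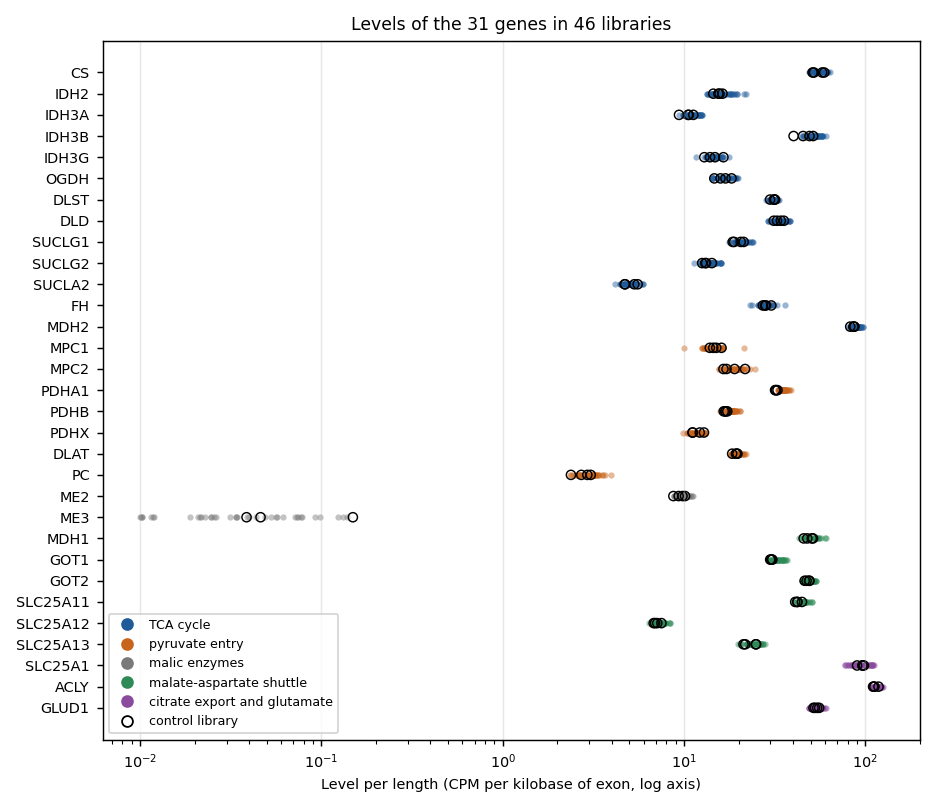
Level per length of each of the 31 genes (CPM per kilobase of exon, log axis) in every library with a count; filled points are treated libraries, coloured by role, and open circles are the 4 control libraries. The genes span from ME3, listed at 0 in 5 libraries that are not drawn, to ACLY, and the libraries of a gene other than ME3 lie close together on this scale.

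The question asked of each gene was whether its mRNA differed between a treatment and the control of the same batch. With edgeR's quasi-likelihood test and the batch as a term, 0 of the 341 tests (31 genes in 11 treatments) passed an adjusted p of 0.05. DESeq2, run on the same model, called 7. DESeq2 also called more of all genes in the treatments that hold these 7, with 0.365% in ATP8, 1.52% in COX2, 1.68% in CYTB and 0.774% in ND1. With the replicate number as a block in place of the batch, edgeR called IDH3B in ATP8, COX2, COX3 and ND1, and PDHA1 in ND1. There 0.178% (ATP8), 1.09% (COX2), 0.779% (COX3) and 0.385% (ND1) of all genes were called. The values that follow are from the fit with the batch as a term unless stated. At an unadjusted p under 0.05 edgeR gave 55 tests (16.1%), of which 53 were higher and 2 lower than the control. Of all tested genes, 3.31% (ND3) to 14.1% (ND4L) were at that threshold in a treatment. Those higher than the control made up 1.62% (ND3) to 7.66% (CYTB) of all tested genes. With edgeR the share of all tested genes called was 0.00987% in ATP6, 0.0641% in ATP8, 0.0543% in COX1, 0.469% in COX2, 0.306% in COX3 and 0.548% in CYTB. Among the complex I treatments it was 0.0888% in ND1, 0.0247% in ND2, 0.00987% in ND3, 0.148% in ND4L and 0.158% in ND5. Apart from ME3, whose error was 0.69 to 0.93, the standard error of a log2 fold change was between 0.04 and 0.10. All 330 95% intervals of the other 30 genes lay within ± 0.5 on the log2 scale, a 1.41-fold change, and the outermost bounds were 0.39 (PC in ND4L) and −0.34 (MPC1 in ND4L).

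Small differences leaned upwards. The fold change was above 0 in 250 of the 341 tests (73.3%), and the median over the 31 genes ran from 0.002 in ND4L and 0.017 in ND3 to 0.068 in ATP8 and 0.075 in ND1 on the log2 scale, with that of ND4L turning to −0.002 with RLE size factors and −0.003 once a trend on gene length was removed. Single libraries moved the low medians: that of ND3 was 0.003 without ND3 replicate 1 and 0.038 without ND3 replicate 2, that of COX1, 0.033, was 0.009 without COX1 replicate 4, and that of ND5, 0.022, was 0.004 without control replicate 4. The median over all tested genes was between −0.003 and 0.004 in each treatment, and the share of all genes above the control ran from 49.1% in ND1 to 51.3% in COX1. This lean is a description, since one set of control libraries stands behind all 11 treatments and a low value there raises every one of them. In ND1, 11 of the 31 genes were above the control at an unadjusted p under 0.05, against 11.7% of all genes in either direction. The corresponding numbers were 9 genes in ATP8 (10.2% of all genes) and 5 in ATP6 (9.08%). In COX2 and COX3 6 genes were higher and 1 lower in each, with 13.6% and 10.4% of all genes. In CYTB and ND4L 6 genes were higher and none lower, with 13.7% and 14.1%. COX1 and ND3 had 1 gene each (7.44% and 3.31% of all genes), ND5 had 2 (9.3%) and ND2 had none (4.91%).

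**Figure D2:**
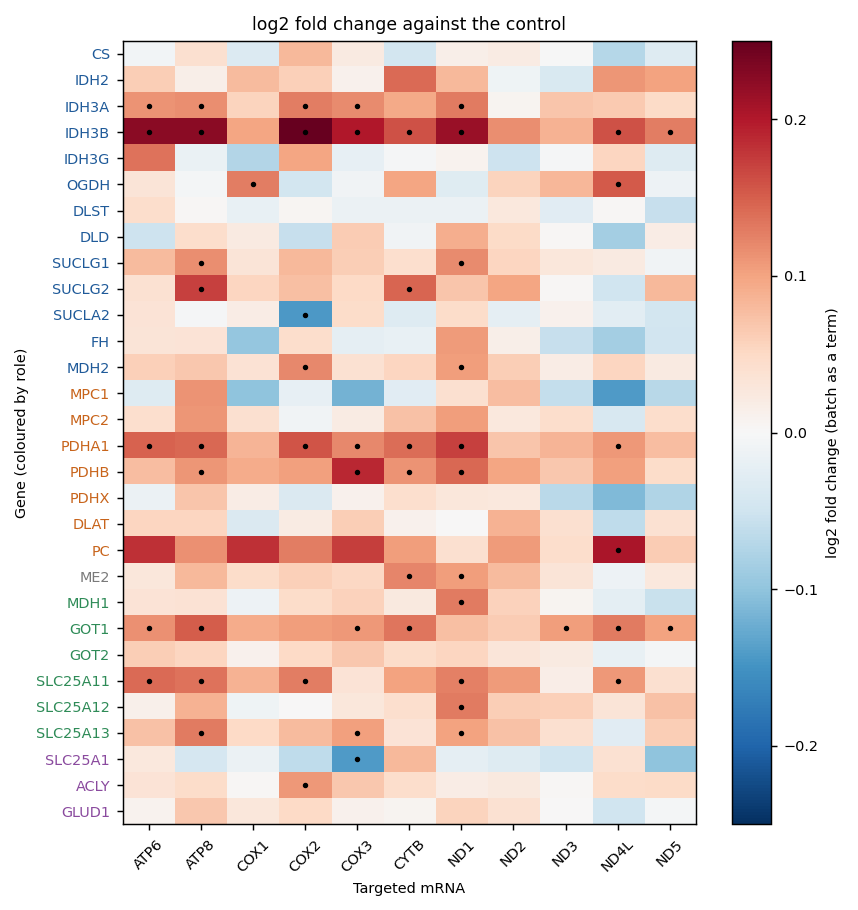
log2 fold change against the control for 30 genes (rows, named in the colour of their role as in the plot of levels) in the 11 treatments (columns); a dot marks an unadjusted p under 0.05, and ME3 is left out for its few counts. IDH3B, PDHA1 and GOT1 are above 0 in all columns, and no cell passes an adjusted p of 0.05 in edgeR's test with the batch as a term.

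A joint test of the 11 treatments asked, gene by gene, whether any of them differed from the control. None of the 31 genes passed an adjusted p of 0.05 in edgeR, against 0.493% of all genes, 3 had an unadjusted p under 0.05, against 12.2% of all genes, and DESeq2 called 3, against 3% of all genes. These 3 were OGDH, IDH3B and PDHA1 with either tool. A contrast of the mean of the 11 treatments with the control also called none in edgeR, against 0.261% of all genes. Here 6 genes had an unadjusted p under 0.05, all higher, against 11.9% of all genes, and DESeq2 called 2 (PDHA1 and IDH3B), against 1.09% of all genes. With replicate number as a block, edgeR called IDH3B and PDHA1 for the mean (adjusted p = 0.0234 and 0.049), against 0.75% of all genes. That fit also called IDH3B in the joint test of any treatment (adjusted p = 0.0471, edgeR), against 1.57% of all genes. A joint test of differences among the treatments called none of the 31 genes in edgeR, against 0.306% of all genes, and DESeq2 called 0. This joint test sets no treatment against the control, although the control libraries enter edgeR's estimates of spread and batch. In that test 1 gene, OGDH, had an unadjusted p under 0.05, against 10% of all genes.

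PDHA1, on the X chromosome, encodes the catalytic E1 alpha subunit of the pyruvate dehydrogenase complex, the part that phosphorylation switches off. Its level in the control was 144, 147, 145 and 143 CPM in replicates 1 to 4. In ND1 it was 171, 167, 164 and 150.5 CPM, in CYTB 174, 159, 156 and 149.7 CPM, and in COX2 160.1, 161 and 161 CPM (replicates 2 to 4). All 42 treated libraries, from 148 CPM in ND2 replicate 4 to 174 CPM in CYTB replicate 1, lay above every control library of their batch, and the lowest treated library lay above the highest control library. This separation, looked for after the values were seen, was found in 0.00987% of all tested genes (2 genes), and a further 4 genes had all treated libraries below the control. The 4 control libraries had a standard deviation of 1.9 CPM. The log2 fold change was 0.12 ± 0.03 (SE) for the mean of the treatments, or 8.56%, with an adjusted p of 0.0718 in edgeR. In single treatments it ran from 0.07 in ND2 to 0.17 in ND1, where the adjusted p was lowest (0.0793 in edgeR). DESeq2 gave adjusted p-values of 0.0144 in ND1, 0.0266 in COX2, 0.031 in CYTB and 0.0499 in ATP8, and 0.0154 for the mean. The difference was above 0 in all 11 treatments within each batch alone, at 0.05 to 0.21 in batch 1 and 0.05 to 0.16 in batch 2. Of the PDHA1 exon bases, 21.3% are also exon of MAP3K15 on the other strand, and the use of strand in counting is not stated; MAP3K15 itself had 7.65 CPM in the control and a log2 fold change of −0.09 for the mean (adjusted p = 0.797, edgeR).

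IDH3B, on chromosome 20, encodes a subunit of the NAD-dependent isocitrate dehydrogenase of the cycle. It is described in full because its adjusted p was the lowest, a choice made after its values were seen. Control libraries had 132, 126, 117 and 103 CPM in replicates 1 to 4. In COX2 it had 148, 141 and 129.9 CPM in replicates 2 to 4, and in ATP6 142, 149, 134 and 132 CPM. The ranges of control and treated libraries overlapped over both batches, but in ATP6, ATP8, COX2, COX3, ND1, ND2 and ND4L every treated library lay above both control libraries of its batch. The log2 fold change was 0.25 in COX2 (adjusted p = 0.0567, edgeR), 0.22 in ATP6, ATP8 and ND1, and lowest in ND3 at 0.09. The mean of the treatments gave 0.17 ± 0.04 (SE), or 12.5%, with 39 of 42 treated libraries above the control of their batch and an adjusted p of 0.0714 in edgeR. DESeq2 called COX2, ATP8 and ND1 (adjusted p = 0.0201, 0.0408 and 0.0434) and the mean (0.0225). The call in COX2 turned on single libraries: without COX2 replicate 4 the adjusted p was 0.0348 in edgeR, and it was 0.0488 without control replicate 1. It was 0.0399 without ATP8 replicate 3, 0.0473 without ND4L replicate 3 and 0.0492 without CYTB replicate 1, all libraries of other treatments. Without control replicate 4, the lowest of the control libraries, the mean of the treatments was 0.12. Within each batch alone all 11 treatments were above 0, at 0.01 to 0.20 in batch 1 and 0.13 to 0.31 in batch 2.

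The promoters of these 2 genes are shown because theirs were the 2 lowest adjusted p-values of the 31 for the mean of the treatments. They are RefSeq sequences of GRCh38.p14, 5′ to 3′ on the strand of the gene, from 250 bases before to 50 bases after the start. Capitals mark matches, on either strand, to the SP1 box GGGCGG, the CCAAT box CCAAT, the ETS core CCGGAAG or the ATF4-CEBP element TTGCATCA.
PDHA1, chrX:19343677-19343976, plus strand: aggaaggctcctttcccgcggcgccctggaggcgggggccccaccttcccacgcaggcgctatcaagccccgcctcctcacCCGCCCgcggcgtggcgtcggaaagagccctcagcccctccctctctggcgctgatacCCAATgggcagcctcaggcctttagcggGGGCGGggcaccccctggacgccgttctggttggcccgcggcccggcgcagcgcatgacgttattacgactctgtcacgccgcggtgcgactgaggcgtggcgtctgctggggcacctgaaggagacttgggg
IDH3B, chr20:2664167-2664466, minus strand: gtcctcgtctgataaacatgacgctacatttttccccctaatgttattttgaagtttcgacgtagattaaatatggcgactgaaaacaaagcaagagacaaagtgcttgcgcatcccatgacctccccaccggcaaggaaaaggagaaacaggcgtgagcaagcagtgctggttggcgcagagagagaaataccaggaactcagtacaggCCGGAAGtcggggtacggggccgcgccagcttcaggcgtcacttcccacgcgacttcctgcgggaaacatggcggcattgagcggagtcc
The PDHA1 window held 2 SP1 matches and 1 CCAAT match, and that of IDH3B held 1 ETS match, so the pair shared none of these. Promoters were at hand for 30 of the 31 genes (all but OGDH). An SP1 match was present in 20 of them (66.7%), against 44.6% of all 27305 promoters of the same length, and a CCAAT match in 19 (63.3%), against 35.7%. ETS matches were found in 5 (16.7%; all promoters 10.7%) and an ATF4-CEBP match in 1, that of GOT1 (3.33%; all promoters 0.923%). No matches overlap in the windows shown. These are exact letter matches and say nothing about binding. The 27305 promoters were not limited to expressed genes, so the shares do not set these genes apart from other expressed genes.

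**Figure D3:**
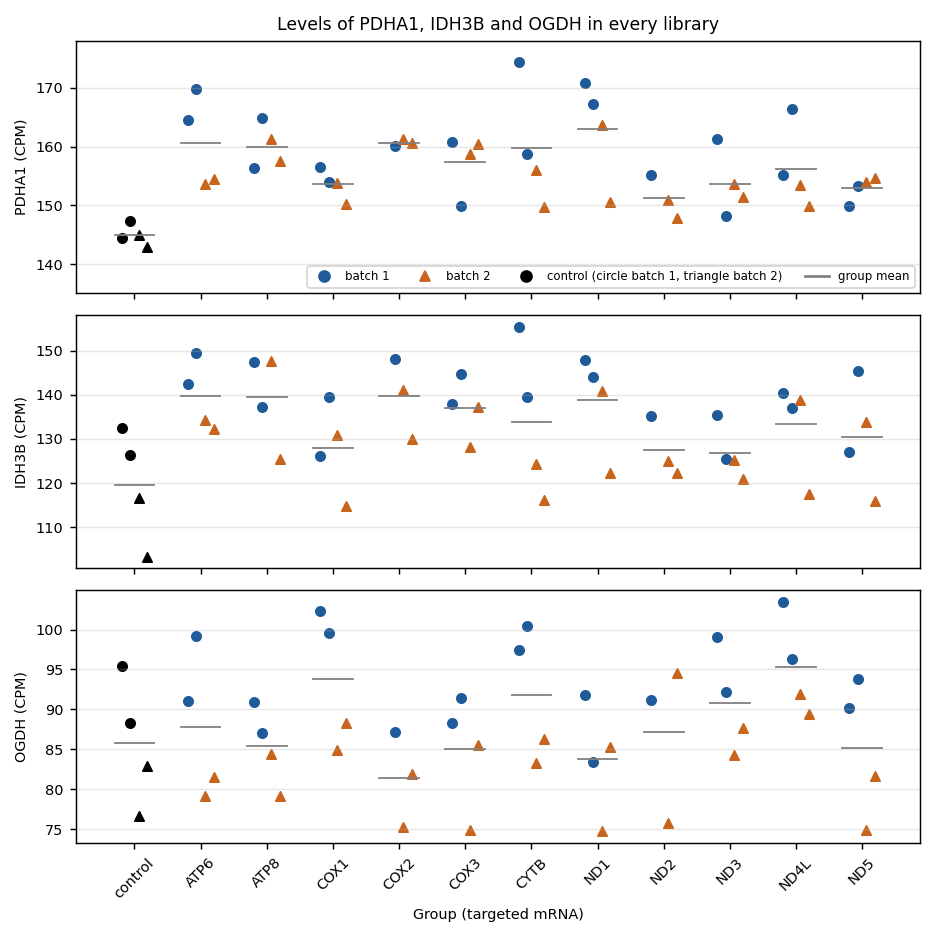
CPM of PDHA1, IDH3B and OGDH in each library (vertical axes do not start at 0), by group; circles are batch 1, triangles batch 2, black the control, and grey lines group means. All treated PDHA1 libraries sit above the 4 control libraries at 143 to 147 CPM, whereas IDH3B and OGDH overlap with the control and are mostly lower in batch 2.

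OGDH, the TCA cycle gene with the lowest p in the joint test (adjusted p = 0.193, edgeR), differed from these 2 in that its treatments went both ways. Control replicates 1 to 4 had 95.4, 88.3, 76.6 and 82.9 CPM. After ND4L treatment the values were 104, 96.3, 92.0 and 89.4 CPM, and after COX1 treatment 102, 99.6, 84.9 and 88.3 CPM. After COX2 treatment they were 87.2, 75.2 and 81.9 CPM in replicates 2 to 4. In ND4L, COX1 and CYTB each treated library lay above both controls of its batch, and in the other 8 treatments the ranges overlapped or treated libraries were lower in at least 1 batch. The log2 fold change was 0.15 in ND4L (adjusted p = 0.184), 0.13 in COX1 (0.604) and −0.04 in COX2 (0.799, all edgeR). Among the treatments the joint test gave an adjusted p of 0.233 in edgeR.

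The other TCA cycle genes showed smaller or less even differences. IDH3A, the partner of IDH3B, was above the control in all 11 treatments, by 0.01 in ND2 to 0.13 in ND1 on the log2 scale, with 5 treatments at an unadjusted p under 0.05. Of the IDH3A exon bases 38.9% are shared with the other strand, almost all with ACSBG1, which had 2.27 CPM and a mean of 0.12 (adjusted p = 0.817, edgeR). The third subunit, IDH3G, was above in 4 and below in 7, and shares 10.2% of its exon bases with SSR4 (132 CPM in the control). MDH2, which closes the cycle by making oxaloacetate, was above in all 11 as well, by 0.02 to 0.12. Its directions in the 2 batches alone were opposite in 5 treatments, with a mean of 0.01 in batch 1 and 0.10 in batch 2. The subunits SUCLG1 and SUCLG2 of succinyl-CoA synthetase were above in 10 treatments each, whereas SUCLA2 was above in 5 and stood at −0.14 in COX2 (adjusted p = 0.323, edgeR). CS (−0.07 to 0.08), DLST (−0.06 to 0.04), DLD (−0.08 to 0.09) and fumarase FH (−0.10 to 0.11) lay on either side of 0. The NADP-dependent mitochondrial enzyme IDH2 ran from −0.04 to 0.14, but its directions in the 2 batches were opposite in 8 of the 11 treatments, with −0.20 to 0.08 in batch 1 alone and 0.09 to 0.29 in batch 2 alone.

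Among the genes of pyruvate entry, PDHB, the other E1 subunit, was above the control in all 11 treatments, as PDHA1 was. Its highest log2 fold change was 0.19 in COX3 (adjusted p = 0.113, edgeR), and its mean over the treatments was 0.10 ± 0.04 (SE; adjusted p = 0.258, edgeR). The E2 subunit DLAT (−0.06 to 0.09) and the E3-binding protein PDHX (−0.11 to 0.07) lay on either side of 0; differences between the subunits were not tested. PC was above the control in all 11 treatments by 0.04 to 0.20, but at 14.0 to 23.3 CPM its error was larger (mean 0.12 ± 0.07, SE; adjusted p = 0.504, edgeR). In 4 treatments the directions of PC in the 2 batches alone were opposite. The carrier subunits MPC1 (−0.14 to 0.11) and MPC2 (−0.04 to 0.11) passed the test in no treatment. In MPC2, 22.5% of the exon bases are shared with DCAF6 on the other strand, a gene at 78.7 CPM in the control with a log2 fold change of −0.04 for the mean.

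The 6 genes of the malate-aspartate shuttle had means over the treatments of 0.03 (MDH1) to 0.11 (GOT1), all above 0. GOT1, the cytosolic aspartate aminotransferase, was above the control in all 11 treatments, by 0.06 to 0.15, and in both batches alone. Its mean was 0.11 ± 0.04 (SE), with 40 of 42 treated libraries above the control of their batch and an adjusted p of 0.173 in edgeR. SLC25A11, the 2-oxoglutarate carrier, had the lowest p of the group in the joint test (adjusted p = 0.439, edgeR). Its control libraries had 119, 113, 112 and 109.6 CPM in replicates 1 to 4. In ATP6 it had 121, 136, 122 and 123 CPM, all above the control, and in ND3 112, 115, 116 and 116 CPM, within the range of the control. The log2 fold change ran from 0.02 in ND3 to 0.14 in ATP6, with a mean of 0.09 ± 0.04 (SE; adjusted p = 0.278, edgeR). Without ATP6 replicate 2 its value in ATP6 was 0.10. Of the exon bases of GOT1, 19.3% are shared with the antisense AL391684.1 (3.57 CPM in the control), and of SLC25A11 9.14% with RNF167 (145 CPM, mean 0.00). SLC25A12 and SLC25A13 had means of 0.05 and 0.06, and the mitochondrial aminotransferase GOT2 0.03.

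Of the malic enzymes, which make pyruvate from malate, ME2 had 159, 165, 142 and 152 CPM in control replicates 1 to 4. In CYTB, where its difference was greatest, it had 175, 172, 169.8 and 156 CPM, each above both control libraries of its batch. The log2 fold change there was 0.12 (adjusted p = 0.175, edgeR), and the mean over the treatments was 0.06 ± 0.03 (SE; adjusted p = 0.504). ME3 ranged from −1.59 to 0.44 with standard errors of 0.69 to 0.93. A change in ME3 was not detectable at this depth.

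For citrate export, SLC25A1 had 206, 189, 203 and 202 CPM in control replicates 1 to 4. In COX3 it had 167, 163, 169 and 229 CPM, so that 3 libraries lay below the control and replicate 4 above it. Replicate 4 of the other groups ran from 198 CPM (ND5) to 233 CPM (COX1), so 229 CPM lay within their range. The log2 fold change in COX3 was −0.14 (adjusted p = 0.461, edgeR). In CYTB, with 215, 195, 205 and 232 CPM, it was 0.08 (0.04 without CYTB replicate 1 and 0.13 without control replicate 1), and the mean over the treatments was −0.03 ± 0.05 (SE; adjusted p = 0.87). ACLY was above the control in all 11 treatments by 0.00 to 0.11, with its highest value in COX2 (adjusted p = 0.243, edgeR). In 4 treatments the directions of ACLY in the 2 batches alone were opposite. GLUD1, which oxidizes glutamate to 2-oxoglutarate, ran from −0.05 to 0.07. GLUD1 pseudogenes have counts of their own, but how reads shared with GLUD1 were assigned is not given. The most expressed pseudogene, GLUD1P3, had 1.8% of the CPM of GLUD1. Of the GLUD1 exon bases, 13.2% are shared with SHLD2 on the other strand.

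More of these genes were called between the batches than between any treatment and the control. The batch contrast draws on all 46 libraries and a treatment contrast on far fewer, so the numbers called do not compare the sizes of the differences. Between batch 2 and batch 1, 23 of the 31 genes differed at an adjusted p of 0.05 in edgeR (74.2%), against 57.1% of all tested genes and 68.3% of the 10430 genes with a mean of at least 10 CPM, the level of 30 of the 31. Of the 23, 18 were lower and 5 higher in batch 2, while over all genes 29.2% were called higher and 27.9% lower. The median log2 difference was −0.10 over the 31 genes and 0.01 over all. MPC2 was lower by 15.0% (log2 −0.23 ± 0.03, SE; adjusted p = 5.25e-10), PC by 13.7% and SLC25A13 by 12.9%. IDH2 was higher by 19.1% (log2 0.25 ± 0.04, SE; adjusted p = 3.12e-08, all edgeR), SLC25A1 by 14.7%, CS by 11.3%, SUCLG2 by 7.57% and MDH2 by 4.94%. Of the sums of squares of log2 CPM, the batch took a median of 31.4% over the 31 genes, against 14.2% over all genes and 22.3% over those with at least 10 CPM, and the group took 22.5% over the 31. The highest batch share was 68.1% in SLC25A13, and in PDHA1 the batch took 10.3% and the group 49.7%. The group has more terms in the fit than the batch, so the shares of batch and group are not on one scale. A group share over all genes was not computed. After both terms the standard deviation between libraries had a median of 0.07 on the log2 scale, and it was highest, ME3 aside, in MPC1 (0.15), PC (0.14) and IDH2 (0.13). The day, the reagents and any other feature of the batches cannot be told apart.

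**Figure D4:**
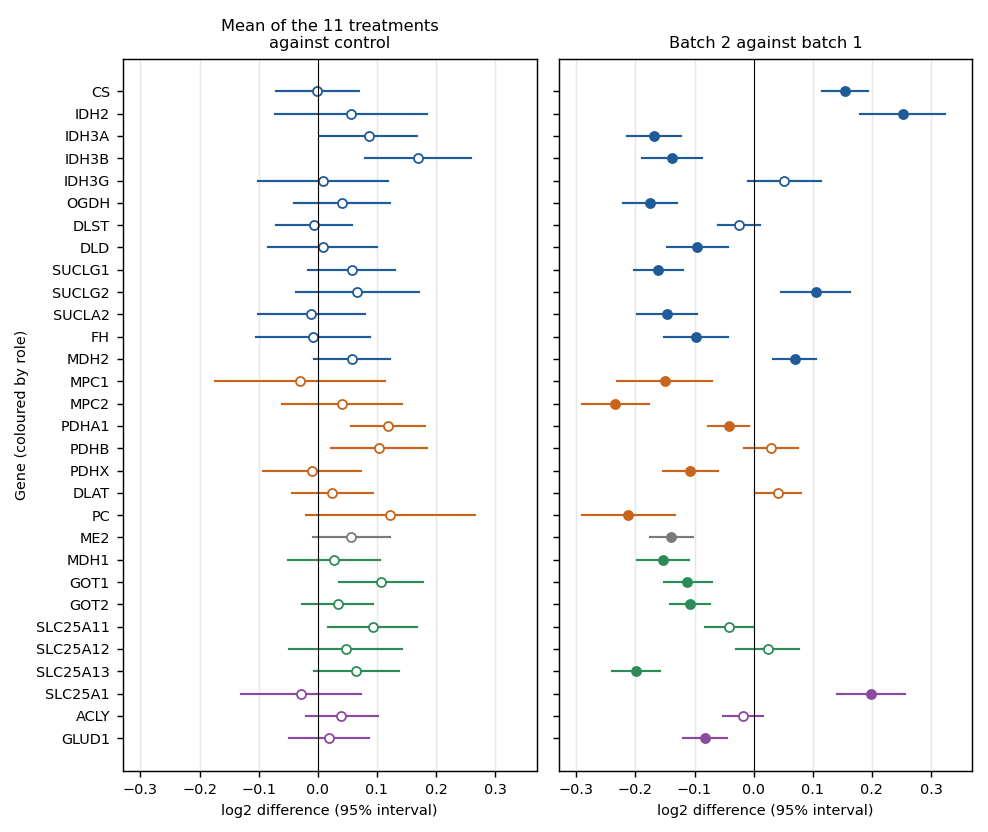
log2 difference with its 95% interval for 30 genes, as the mean of the 11 treatments against the control (left) and batch 2 against batch 1 (right); filled points pass an adjusted p of 0.05 in edgeR and open points do not, and ME3 is left out. No point is filled on the left, where IDH3B at 0.17 and PDHA1 at 0.12 lie farthest from 0 with intervals above it, and 23 are filled on the right.

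A list of 38 related genes outside the 31 was drawn up by function and included the remaining cycle enzymes, the kinases and phosphatases of pyruvate dehydrogenase, and glutamine, lactate and glycerol phosphate enzymes. All 38 were tested, and those that passed an adjusted p of 0.05 were all higher than the control: 2 in COX2 (0.469% of all genes called), 2 in COX3 (0.306%), 3 in CYTB (0.548%) and 1 in ND1 (0.0888%). No related gene was called in the other 7 treatments by edgeR. There 4 (COX1), 7 (ATP6), 10 (ATP8), 3 (ND2), 1 (ND3), 5 (ND4L) and 3 (ND5) were higher at an unadjusted p under 0.05. Of all genes, 4.58% (COX1), 5.39% (ATP6), 6.21% (ATP8), 2.34% (ND2), 1.62% (ND3), 7.11% (ND4L) and 4.78% (ND5) were higher at that threshold. In each of ND2, ND3, ND4L and ND5, 1 related gene was lower. The succinate dehydrogenase subunits, the aconitases and the 4 kinases PDK1, PDK2, PDK3 and PDK4 were called in none.

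OGDHL, an OGDH-like protein, rose in COX2 (log2 fold change 0.59 ± 0.12, SE; adjusted p = 0.0097), COX3 (0.47 ± 0.11; 0.0319) and CYTB (0.45 ± 0.11; 0.0371, all edgeR). In COX2 it stood at 142%, 153% and 164% of the control mean of the batch in replicates 2 to 4. All 42 treated libraries were above that mean, and the contrast of the mean of the treatments was 0.37 ± 0.08 (SE; adjusted p = 0.0349, edgeR). With 7.55 CPM in the control, OGDHL has far fewer reads than OGDH.

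LDHA, which turns pyruvate into lactate, rose in COX2 (0.25 ± 0.05, SE; adjusted p = 0.00558), ND1 (0.23 ± 0.05; 0.0138) and COX3 (0.21 ± 0.05; 0.0186, all edgeR). In ND1 it stood at 115%, 117%, 127% and 111% of the control mean of the batch, and in ND5 at 98.4%, 95.7%, 109% and 95.6%. The joint test among the treatments, which sets no treatment against the control, gave an adjusted p of 0.000117 for LDHA in edgeR. None of the 31 genes passed that test.

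SLC25A10, the dicarboxylate carrier, and PCK2, the mitochondrial enzyme that makes phosphoenolpyruvate from oxaloacetate, rose in CYTB, by 0.39 ± 0.10 (SE; adjusted p = 0.0424) and 0.34 ± 0.08 (SE; adjusted p = 0.0369, both edgeR). SLC25A10 stood at 133%, 114%, 149% and 132% of the control mean of the batch in CYTB, and PCK2 at 118%, 116%, 129% and 146%. These calls were lost in most fits that left out a single library: of 8 such fits, SLC25A10 was called in 2 and PCK2 in 3, and OGDHL in COX3 and CYTB and LDHA in COX3 were called in 2 each. In COX2, OGDHL and LDHA were called in 5 of 7 such fits each, and LDHA in ND1 in 5 of 8.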

How the data were processed

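Poly(A) RNA was sequenced, and the deposited values are the authors' raw read counts of each gene, from before the batch correction by limma that they describe. Their labels name GRCh38.p12, R 4.3.0, DESeq2 1.40.2 and limma 3.56.2. Which aligner and counter were used, and whether strand was, is not given in the sources used here. The labels describe single-end reads and the methods paired-end ones. The deposited table also gives a gene length, which equalled the union of exons in GENCODE 29 for all 31 genes.

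Counts were tested here with the quasi-likelihood F test of edgeR 4.0.16 under R 4.3.3, after TMM scaling and filterByExpr with a minimum count of 10, with terms for group and batch in all 46 libraries and Benjamini-Hochberg adjustment over 20272 genes in each contrast. Fold changes, CPM and log2 CPM (prior count of 2) were computed from the deposited counts. Standard errors are Wald errors scaled to each gene's F statistics. Alternatives were no batch term, the replicate number as a block, DESeq2 1.42.0, RLE size factors, no filter, a minimum count of 50, nuclear library sizes, removal of a trend on gene length, each batch alone and leaving out each library. The scripts were tested on simulated data. All 66 replicate pairs differed by more than sampling noise (lowest chi-square 3.46 times its degrees of freedom).

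Genes given in every library were those called, of which there were none, and the gene with the lowest p in the joint test in each of 5 role groups; IDH3B was added after its values were seen. The members and lists were chosen with earlier results of these data known. The proteomics of the study was not analysed here. A further cell type marker is not reported here.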

Additional observations from a re-analysis of the deposited data

Results flagged for a closer look

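Of 60 groups of 4 libraries examined over the 6 genes given in every library, 5 held a library far from the other 3, by Dixon's criterion. In a homogeneous sample, chance alone meets it in about 1 group in 20. Each group here spans 2 batches, so that rate does not apply to it. SLC25A11 had 136 CPM in ATP6 replicate 2 (the others 121 to 123), 106 CPM in COX3 replicate 3 (the others 118 to 120) and 108 CPM in ND5 replicate 4 (the others 119 to 121). SLC25A1 had 229 CPM in COX3 replicate 4, against 163 to 169 in the other 3. Replicate 4 of the other groups ran from 198 CPM (ND5) to 233 CPM (COX1), so this value lay within their range. IDH3B had 118 CPM in ND4L replicate 4, against 137 to 140. LDHA is listed because the treatments differed from each other in the joint test among them (adjusted p = 0.000117, edgeR).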

How the results depend on the processing

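Which genes were called depended on the settings. Between the 2 batches taken alone, the mean of the treatments had opposite directions in 9 of the 31 genes, such as IDH2 (−0.066 and 0.182) and MPC1 (0.042 and −0.108), and so had 116 of the 341 single differences. With the replicate number as a block in place of the batch, 5 tests of a treatment against the control were called (ATP8 1, COX2 1, COX3 1 and ND1 2), with 2 genes in the mean of the treatments and 1 in the joint test of any treatment; of all genes, 0.178% to 1.09% were called in those treatments and 1.57% in the joint test. Whether the number pairs the libraries was not settled. Of 42 treated libraries, 15 correlated above 0.1 with the control of their number (lowest −0.356). Likewise, 15 correlated best with their own number, and no chance level was computed for either count. DESeq2 called 7 (ATP8 2, COX2 2, CYTB 1 and ND1 2), with 2 in the mean and 3 in the joint test. With no filter 5 were called (ATP6, ATP8, COX2, COX3 and ND1, 1 each), with 1 in the mean and 1 in the joint test (of all genes 0.19% to 0.678% in those treatments and 2.22% in the joint test), and the stricter filter called 1, in COX2 (1.08% of all genes). PDHA1, IDH3B and OGDH made up these calls; the cause was not tested. Leaving out 1 library gave 0 to 1 call over all treatments and in COX2. The median over the genes was 0.097 in ATP8 and 0.099 in COX2 in batch 1 alone, 0.068 in CYTB in batch 2 alone, 0.032 in ND2 with no batch term, and −0.008 to 0.027 in ND4L with 1 library left out. It was −0.002 (RLE), −0.003 (DESeq2), −0.003 (gene length trend removed) and −0.008 (batch 2 alone) in ND4L, and −0.006 in ND5 in batch 1 alone. Of the 31 genes 22 to 25 differed between batches in the 46 fits that left out 1 library. The mean of SLC25A1 was 0.058 in batch 2 alone and −0.058 to 0.022 with 1 library left out (0.022 without control replicate 1). The standard error of a log2 fold change, 0.04 to 0.104 and in ME3 0.691 to 0.933, limits which differences could be called.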
